A study of Brassica rapa with 9 samples.

Results

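Among the genes of Brassica rapa with many reads in this series, 42 kept nearly the same level in all 9 libraries of whole seedlings, across non-transgenic plants and both kinds of transgenic plants. They were chosen by their own normalised counts. A normalised count N is the number of reads at a gene divided by the size factor of its library, which is the median, over the 27988 genes with reads in all 9 libraries, of the gene's count relative to its geometric mean. A gene entered with a mean N of 2000 or more over the 9 libraries and a highest N at most 1.3 times its lowest N. Of 41020 gene IDs in the files, 35963 had at least 1 read, 1572 reached the mean of 2000, and 42 of these, 2.67%, stayed within the limit of 1.3. The choice used every library, so the levels below are a description and their steadiness is not a test result.

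The seedlings were of the cultivar Chiifu, 2 weeks old, grown without heat treatment on MS medium at 0.5 strength with 0.5% sucrose, in light conditions the labels call LD. NT is the non-transgenic (wild-type) Kimchi cabbage, AtPHYB carries phytochrome B of Arabidopsis thaliana, and G564E carries a mutant of it whose amino acid 564 is changed from glycine to glutamate. Each genotype has 3 libraries, and all share cultivar, age and medium. The promoter of the transgenes, the number of transgenic lines and whether a library holds 1 plant or a pool were not stated in the labels. The p-values below therefore rest on how far these libraries differ among themselves, possibly for technical reasons, and plant line cannot be told apart from genotype.

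Phytochrome B senses red and far-red light, moves into the nucleus when activated and changes the transcription of many genes for growth, pigments and flowering. Genes whose transcript level changes little between conditions are used in plant work as internal references, against which other transcripts are scaled in quantitative PCR. Genes for the cytoskeleton, ubiquitin, translation and central metabolism are often tried for this, and each has to be checked in the tissue at hand. The files give IDs without names. Of all 41020 gene IDs, only 1 was found in the RefSeq gene table of the CAAS_Brap_v3.01 assembly, and 0 of the 42 members were. The members are therefore given by ID, and their functions are not known here. Of 23 lists of such genes drawn up by name (actin, tubulin, ribosomal proteins, proteasome, photosystems and others), 0 could be filled. For the same reason the transgene and the markers of seedling tissue could not be looked up, and no sequence is shown. Gene lengths were not used, so a higher N means more reads at a gene and not more transcript molecules. In whole seedlings, a change in the number of cells of a type and a change in RNA per cell cannot be told apart.

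Libraries held 15262884 to 20998541 counts, and their size factors ran from 0.795 in AtPHYB replicate 2 to 1.24 in G564E replicate 1. G564E replicate 1 stood apart from its group. Replicates were compared over genes with 20 or more reads in a pair, by chi-square per degree of freedom, which sets squared differences against sampling variance. It was 93.6 and 105 between G564E replicate 1 and replicates 2 and 3, against 15.7 between replicates 2 and 3. Pairs of NT libraries had 20.6 to 39.6 and pairs of AtPHYB libraries 11.4 to 27.2. Without G564E replicate 1 the rule gives 91 genes, 37 of them among the 42. Without any other single library it gives 42 to 57 genes.

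The members sat at the lower end of the abundant genes. Their mean N ran from 2000.2 to 3822 with a median of 2367, and they ranked between 633 and 1572 by mean N among all genes. All 42 fell among the 978 genes with a mean N from 2000 to 4000, where they made up 4.29% (95% Wilson interval 3.19 to 5.75). Of the 365 genes from 4000 to 8000, 0 stayed within the limit, and of the 229 genes at 8000 or more again 0 did. A limit of 3 counts on a count of 0 allows shares of up to 0.822% and 1.31%, and the upper ends of the 95% Wilson intervals are 1.04% and 1.65%. These intervals and limits cover counting error over genes only, and genes vary together between libraries. Closest to the limit at a mean N of 4000 or more was Bra011172, singled out after its values were seen, with a mean N of 15459 and a highest N 1.31 times its lowest.

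**Figure D1:**
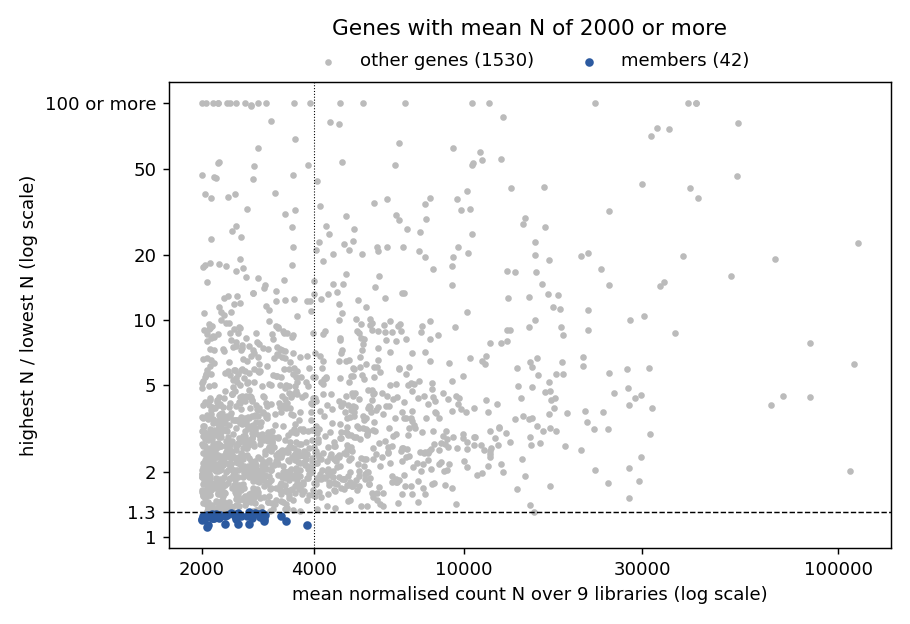
Each point is 1 of the 1572 genes with a mean normalised count N of 2000 or more; the x axis is the mean N over the 9 libraries (log scale) and the y axis the highest N divided by the lowest (log scale, drawn at 100 where higher). The 42 members (blue) lie on or under the dashed limit of 1.3, all left of the dotted line at 4000, while the median ratio of all 1572 genes was 2.90.

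Less abundant genes met the same limit in shares of 3.75% to 5.28% down to a mean N of 200, and in a smaller share from 100 to 200. It was met by 129 of 2443 genes (5.28%) with a mean N from 1000 to 2000, by 225 of 4334 (5.19%) from 500 to 1000, and by 243 of 6482 (3.75%) from 200 to 500. From 100 to 200 the share was 1.19%, or 48 of 4044 genes. The intervals of the classes from 1000 to 2000 and from 2000 to 4000 overlapped. The ratio of highest to lowest N had a median of 2.53 from 2000 to 4000, of 3.46 from 4000 to 8000, and of 4.51 at 8000 or more. The log2 difference of G564E from NT had a median of -0.28, -0.62 and -1.17 in these same classes (edgeR), and that of AtPHYB from NT a median of 0.081, 0.18 and 0.25.

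**Figure D2:**
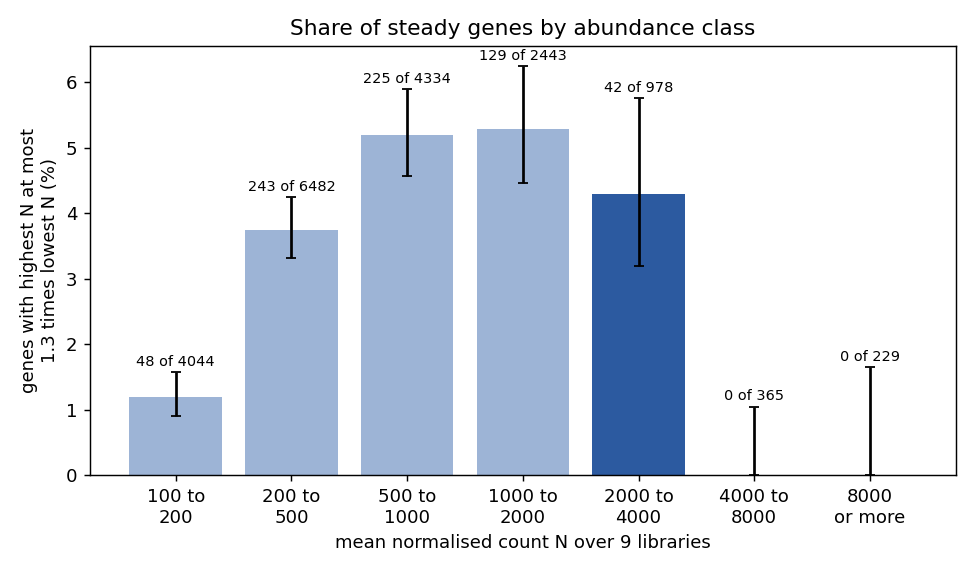
Bars show the percentage of genes in each class of mean normalised count N (x axis) whose highest N over the 9 libraries was at most 1.3 times the lowest; error bars are 95% Wilson intervals and the numbers above them count genes. The dark bar is the class from 2000 to 4000, which holds all 42 members, and both classes above it are at 0.

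How often an abundant gene met the limit inside a genotype turned on single libraries. Of the 1572 abundant genes, 850 (54.1%) stayed within 1.3 times among the 3 NT libraries, 872 (55.5%) among the AtPHYB libraries and 434 (27.6%) among the G564E libraries. The G564E value rests on replicate 1, since replicates 2 and 3 alone stayed within the limit at 1326 genes (84.4%), and pairs with replicate 1 at 557 and 572. Pairs of NT libraries did so at 1027 to 1350 genes and pairs of AtPHYB libraries at 934 to 1428, counts by pair that were added after seeing the data. The means of AtPHYB and NT lay within 1.3 times of each other at 1102 genes (70.1%), those of G564E and NT at 481 (30.6%), and those of G564E and AtPHYB at 383 (24.4%). All 3 means lay within it at 287 genes, and 93 of these were also within it inside each genotype.

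The member with the most reads was Bra039496, with N of 3707, 3813 and 3632 in NT, 3825, 4070.1 and 3860.3 in AtPHYB, and 3578, 4000.1 and 3914 in G564E. The genotypes overlapped except that each AtPHYB library lay above each NT library, by 3918 ± 133 against 3717 ± 90.8 (mean ± SD, n = 3). Its highest N was 1.14 times its lowest, so it is also among the 5 members with the smallest ratio. Bra000365 followed with 3033, 3529.8 and 3197 in NT, 3122, 3608 and 3462 in AtPHYB, and 3286, 3525 and 3369 in G564E. NT replicate 1 was lowest and AtPHYB replicate 1 next, and all genotypes overlapped. Bra031675 stood at 3015, 3051 and 3060.1 in NT, 3172, 3358 and 3314 in AtPHYB, and 3779, 3394 and 3213 in G564E. Here NT was lowest and tight, at 3042 ± 24.1, and lay below every transgenic library, while G564E replicate 1 was highest of all.

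The next 3 members by mean N lay close to each other. Bra034864 had 2879, 3092 and 2857 in NT, 2767, 2760.4 and 3030.1 in AtPHYB, and 2609.7, 3301 and 3291 in G564E. Both its extremes were G564E libraries, replicate 1 the lowest and replicate 2 the highest, so its ratio of 1.26 arose inside 1 genotype. Bra020155 had 3009, 3012 and 2867 in NT, 2784, 2744 and 2921 in AtPHYB, and 3324, 2891 and 2898 in G564E. G564E replicate 1 was this time the highest, and the other 8 libraries lay between 2744 and 3012. Bra001391 had 2658, 3015 and 2914 in NT, 2854, 3081 and 3149.9 in AtPHYB, and 2718, 2963 and 2983 in G564E, with all genotypes overlapping and a ratio of 1.19.

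The remaining 4 of the 10 members with the highest mean N each had 1 or more libraries set apart. Bra039943 had 3123, 3121 and 2548 in NT, 2808, 2638 and 2604 in AtPHYB, and 3277, 3084 and 2906 in G564E. NT replicate 3 was the lowest library of all, far from the other NT replicates, and each G564E library lay above each AtPHYB library. Bra018836 had 3033, 2854 and 2840.1 in NT, 3083, 3090.0 and 2925 in AtPHYB, and 2453, 2796 and 2849 in G564E. It was lowest in G564E replicate 1, and every G564E library lay under every AtPHYB library. Bra034166 had 2878, 2814 and 2959 in NT, 2589.6, 2710.1 and 2759 in AtPHYB, and 2756, 3217 and 3022 in G564E, with AtPHYB under NT in every library and G564E replicate 2 highest. Bra011009 had 2583, 2954 and 2563 in NT, 2789, 3274 and 2836 in AtPHYB, and 2549, 2936 and 2893 in G564E, and its extremes were AtPHYB replicate 2 and G564E replicate 1.

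**Figure D3:**
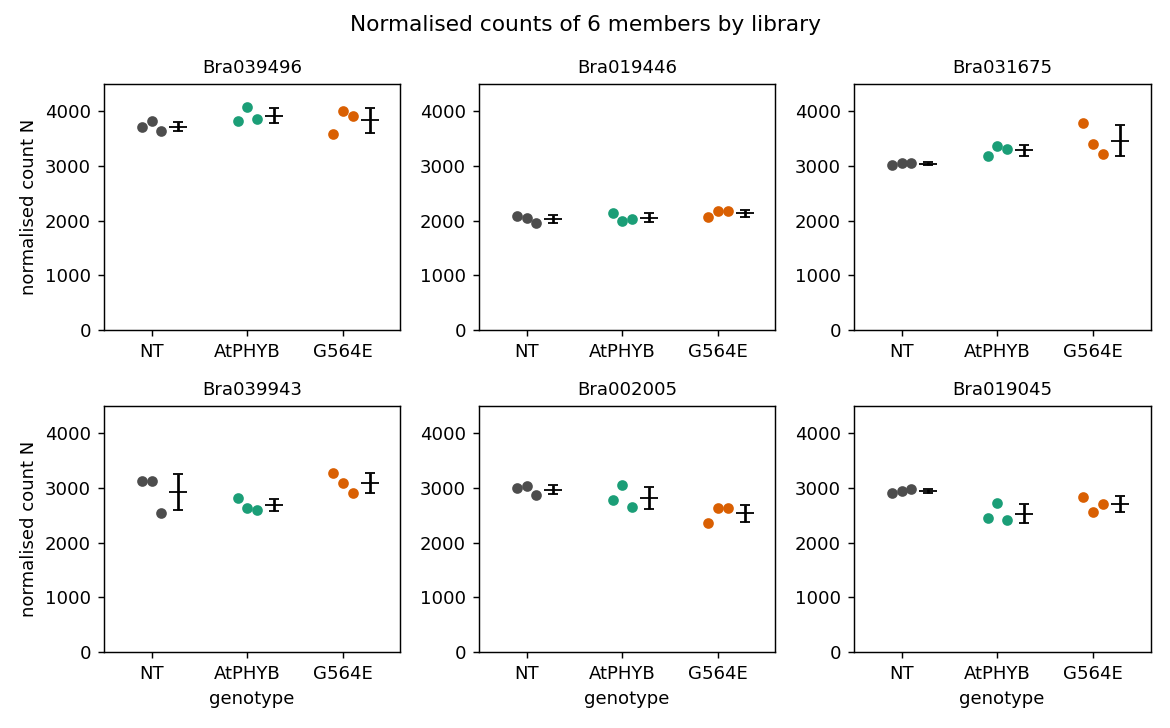
Normalised counts N (y axis, from 0) of 6 members in NT, AtPHYB and G564E; each dot is 1 library in the order of replicates 1 to 3, and the bar beside the dots is the mean ± SD (n = 3). Bra039496 and Bra019446 are among the members with the smallest ratio of highest to lowest N and Bra039943 and Bra002005 among those with the largest; Bra031675 is lowest and Bra019045 highest in NT, and Bra019045 was picked for the plot after its values were seen.

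The smallest ratio of all 42 members was that of Bra019446, 1.11, with 2084, 2045 and 1954 in NT, 2146, 1993 and 2026 in AtPHYB, and 2058, 2174 and 2169.9 in G564E. All genotypes overlapped, and the coefficient of variation over the 9 libraries was 3.77%, where counting error alone would give 2.19%. Bra005239 came next with a ratio of 1.13 and 2162, 2089 and 2027 in NT, 2057, 1992 and 1997 in AtPHYB, and 1967, 2147 and 2225 in G564E. Its highest and lowest libraries were both G564E. Bra040754, at a ratio of 1.15, had 2619, 2674 and 2475 in NT, 2472, 2335 and 2426 in AtPHYB, and 2326, 2562 and 2555 in G564E. Its AtPHYB libraries lay just under its NT libraries without overlap, the nearest of them 2475 in NT replicate 3 and 2472 in AtPHYB replicate 1. Bra021685, at 1.15, had 2519.9, 2851 and 2762 in NT, 2768, 2735 and 2778 in AtPHYB, and 2515, 2478 and 2622 in G564E, and its AtPHYB libraries differed by less than those of either other genotype, with an SD of 22.4, and lay above all G564E libraries. In all, 9 of the 42 members had a ratio of at most 1.2.

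At the other end, 5 members stood just inside the limit. Bra027468 had the largest ratio, 1.2996, with 2629, 2739 and 2751 in NT, 2589, 3121 and 2545 in AtPHYB, and 2402, 2746 and 2533 in G564E. AtPHYB replicate 2 was its highest library and G564E replicate 1 its lowest, and the remaining 7 lay between 2533 and 2751. Bra003738 had 2753, 2654 and 2532 in NT, 2283, 2442 and 2507 in AtPHYB, and 2127, 2519 and 2736 in G564E and a ratio of 1.29, with G564E replicate 1 again lowest and AtPHYB under NT in every library. Bra002005 had 2991, 3028 and 2871 in NT, 2772, 3045 and 2646 in AtPHYB, and 2355, 2624 and 2624 in G564E, and its G564E libraries lay under all others. Bra033655 had 2334, 2267 and 2445 in NT, 2362, 2716 and 2601 in AtPHYB, and 2110.1, 2468 and 2255 in G564E, its extremes being the same libraries as those of Bra027468. The other member in this set was Bra039943, described above, with a ratio of 1.29.

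The genes nearest outside the limit had similar values. Bra018338 had a mean N of 2392 and a ratio of 1.302, Bra013539 a mean N of 2302 and a ratio of 1.303, and Bra040496 a mean N of 2236 and a ratio of 1.307. A further 3 IDs within the limit missed the mean of 2000 by little. They were Bra010735, Bra010569 and Bra036092, with mean N of 1994, 1967 and 1944.

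Just above the mean of 2000 stood 5 members. Bra014365 had 1794, 2083 and 2206 in NT, 1941, 2008 and 2096 in AtPHYB, and 2188, 2014 and 2056 in G564E. Its extremes were both NT libraries, and the genotype means lay within 1.04 times of each other. Bra005086 had 1874, 1938 and 1826 in NT, 2173, 2072 and 1946 in AtPHYB, and 1922, 2219 and 2229 in G564E, with every AtPHYB library above the NT libraries. Bra003395 had 1868, 1771 and 2195 in NT, 1940.2, 2028 and 2165 in AtPHYB, and 1769, 2209 and 2175 in G564E, a wide spread inside NT and inside G564E around means of 1945, 2044 and 2051 in NT, AtPHYB and G564E. Bra037489 had 1968, 2009 and 1829 in NT, 1849, 2194 and 1895 in AtPHYB, and 2084, 2057 and 2148 in G564E, and its 3 G564E libraries lay above its 3 NT libraries. Bra039688 had 2108, 1960.0 and 1871 in NT, 1808, 2013 and 2037 in AtPHYB, and 1834, 2184 and 2185 in G564E, with all genotypes overlapping.

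Genotype means of a member lay close together but had no common order. The highest of the 3 means was 1.03 to 1.19 times the lowest, with a median of 1.096, and at 27 members it was at most 1.1 times. The highest mean was in NT at 8 members, in AtPHYB at 17 and in G564E at 17. The lowest was in NT at 17, in AtPHYB at 13 and in G564E at 12. Differences between genotypes took a median of 35.0% of a member's sum of squares of log2 N, with a range from 6.15% at Bra015687 to 86.2% at Bra009922, and 73.8% over all 1572 abundant genes. Both ends of that range were singled out after their values were seen. The limit of the rule bounds how far the genotype means of a member can differ. Nothing is therefore read from these values being below those of all abundant genes.

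Within the limit, some members still kept the genotypes apart. AtPHYB and NT did not overlap at 10 members, against 26.6% of all 27967 tested genes, G564E and NT at 7 against 43.7%, and G564E and AtPHYB at 8 against 50.3%. At 22 members no pair of genotypes was separated. The limit itself keeps such separations small, and nothing is read from these counts. The clearest cases, chosen after their values were seen, went in several directions. Bra009922 had 1974, 2149 and 1982 in NT, 2122, 2052 and 2073 in AtPHYB, and 2520.2, 2328 and 2403 in G564E, so that each G564E library exceeded every library of both other genotypes. Its NT mean was 2035 ± 98.8, its AtPHYB mean 2082 ± 35.6 and its G564E mean 2417 ± 96.8 (± SD, n = 3). Bra020587 likewise had each G564E library above all others, with 1978, 2086 and 2069 in NT, 1964, 2072 and 2054 in AtPHYB, and 2520.2, 2154 and 2319.8 in G564E. Bra002005 showed the reverse, at 2534 ± 155 in G564E against 2963 ± 82.2 in NT and 2821 ± 204 in AtPHYB. Bra019045 had 2909, 2938 and 2972 in NT, 2451, 2724 and 2416 in AtPHYB, and 2842, 2561 and 2712 in G564E, and its NT libraries stood above all transgenic ones. Bra010849 had 2392, 2417 and 2617 in NT, 2579, 2905 and 2821 in AtPHYB, and 2409, 2324 and 2398 in G564E. AtPHYB replicates 2 and 3 were highest, and each G564E library lay under each AtPHYB library.

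The remaining members with a separated pair of genotypes were Bra035582, Bra007814 and Bra034172, at which AtPHYB lay above NT, Bra001866, at which G564E lay so close above NT that the nearest libraries were 2573 and 2566, and Bra037150, at which G564E lay under AtPHYB. The means of Bra007814 were 2097 ± 15 in NT and 2344 ± 158 in AtPHYB. Those of Bra035582 were 2336 ± 144 and 2556 ± 50.3, and those of Bra034172 2072 ± 54.7 and 2279 ± 135.

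The rest of the members had overlapping genotypes throughout. Bra037777, Bra021477, Bra015687, Bra000163, Bra024620, Bra034218, Bra008234, Bra011319, Bra029628 and Bra019550 had mean N from 2056 to 2457 and ratios from 1.15 to 1.26. Bra000163 had the closest genotype means of all members, an NT mean of 2342 ± 148, an AtPHYB mean of 2294 ± 162 and a G564E mean of 2274 ± 30.5 (± SD, n = 3), and its G564E libraries lay within 2248 to 2308. Bra015687 had means of 2248, 2318 and 2365 in the same order, with the highest and lowest of its 9 values both in G564E. Bra029628 was highest in G564E replicate 3 at 2384 and lowest in NT replicate 1 at 1895.

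**Figure D4:**
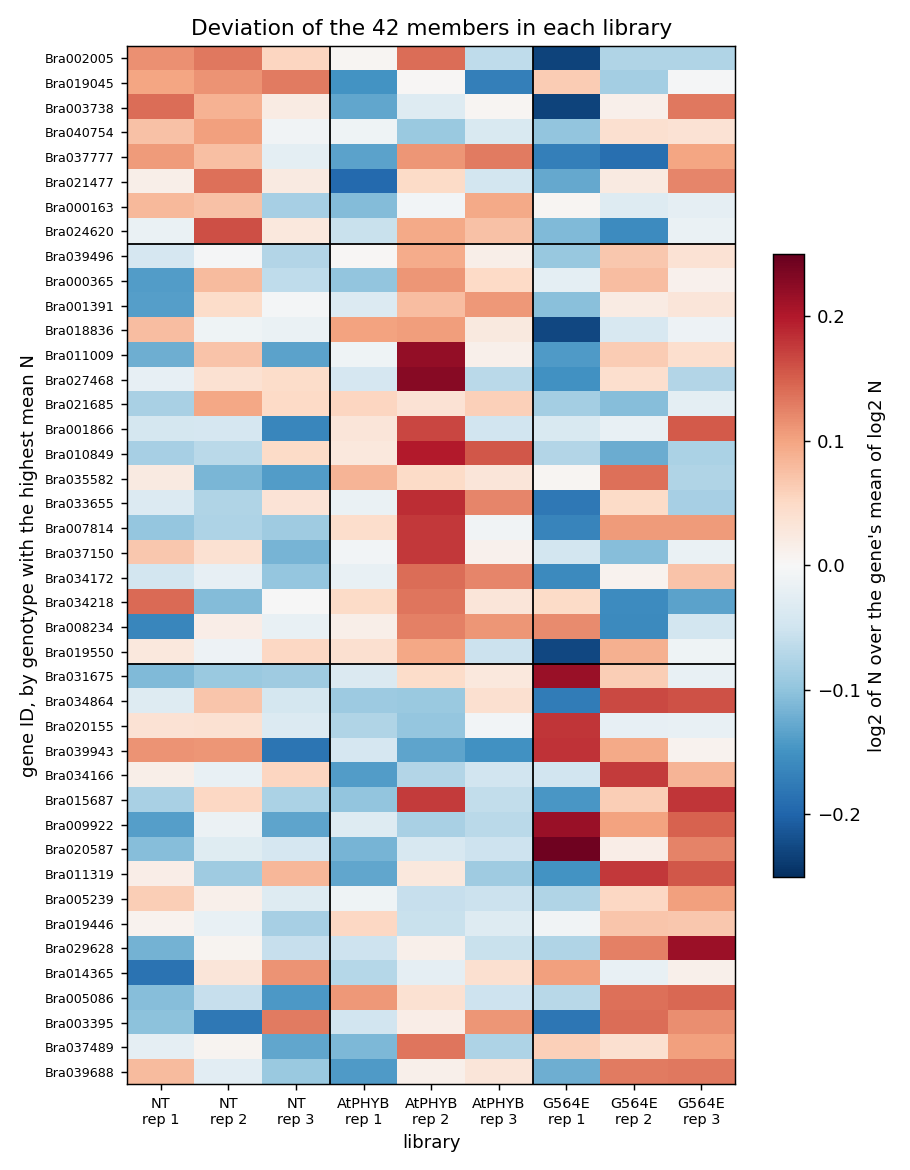
Rows are the 42 members, grouped by the genotype with the highest mean N (NT, then AtPHYB, then G564E, divided by black lines) and ordered by mean N within a group; columns are the 9 libraries. Colour gives the log2 of N over the gene's own mean of log2 N, from blue (below) to red (above), and the strongest colours gather in AtPHYB replicate 2 and G564E replicate 1, the highest library of 15 members and the lowest of 16.

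A few libraries set many of the extremes. AtPHYB replicate 2 held the highest N of 15 members and G564E replicate 1 the lowest of 16, and 9 members had exactly this pair as their extremes. G564E replicate 1 was the highest or lowest library at 21 of the 42, and it also had the widest scatter of members, an SD of the log2 deviation of 0.13 against 0.074 to 0.098 in the other 8 libraries. The median log2 deviation of the members from their own means was -0.080 in G564E replicate 1 and 0.048 in AtPHYB replicate 2, and lay between -0.036 and 0.042 elsewhere. These same libraries have the highest and the lowest size factor, and whether scaling took part in these deviations was not tested. The sum of N over the 42 members ran from 100231 in G564E replicate 1 to 108052 in AtPHYB replicate 2.

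The spread of the members over the libraries, which the rule used, is given here beside counting error as a description. Members had between 1583 and 4690 reads in a library, for which counting error gives a coefficient of variation of 1.62% to 2.23%. The observed coefficient over the 9 libraries was 3.77% to 9.14%, with a median of 7.34%, against a median of 34.0% over all 1572 abundant genes. The variance was 2.95 to 24.3 times that of counting, with a median of 12.4, and 41 of the 42 members had at least 3 times. Within a genotype the ratio of highest to lowest N had a median of 1.09 in NT, 1.11 in AtPHYB and 1.15 in G564E.

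Under the model fitted to the whole table, no member was called in any comparison. For AtPHYB minus NT, 0 members were called higher and 0 lower by edgeR's quasi-likelihood test at a Benjamini-Hochberg adjusted p under 0.05, where 0.104% and 0.0858% of the 27967 tested genes were. For G564E minus NT the counts were again 0 and 0, beside 13.8% and 13.2% of all tested genes, and for G564E minus AtPHYB 0 and 0, beside 18.4% and 16.6%. At an unadjusted p under 0.05 the same fit called 0 members in each comparison, beside 13.6%, 40.8% and 46.3% of all tested genes. The lowest unadjusted p of a member, 0.05003 at Bra009922 for G564E minus NT, missed that threshold by little. At an adjusted p under 0.05 limma-voom called 0 members in each comparison, beside 0.168%, 27.5% and 34.1% of all genes. DESeq2 called 0, 1 and 2 members in the same order of comparisons, beside 3.46%, 33.9% and 40.7% of the 27811 genes to which it gave an adjusted p. The rule used the same libraries as these comparisons and bounds the differences between them, so nothing is read from the absence of calls. The comparisons share libraries in pairs, and their values are given side by side.

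The sizes of the members' differences were as follows. For AtPHYB minus NT the log2 fold changes went from -0.23 at Bra019045 to 0.15 at Bra010849. For G564E minus NT they went from -0.23 at Bra002005 to 0.25 at Bra009922. For G564E minus AtPHYB they went from -0.21 at Bra010849 to 0.23 at Bra009922. Median absolute log2 fold changes of the members were 0.065, 0.073 and 0.094 in that order, beside 0.26, 0.48 and 0.55 over all tested genes and 0.24, 0.67 and 0.83 over the 1572 abundant genes. The rule bounds the differences of the members in advance, so nothing is read from their smaller size. Standard errors lay between 0.11 and 0.14, and the lack of a call does not show that the levels were equal.

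The largest of these, at Bra009922 for G564E minus NT, was 0.25 ± 0.11 on the log2 scale (standard error; edgeR adjusted p = 0.123). DESeq2 gave it 0.25 ± 0.0841 (DESeq2 adjusted p = 0.0116) and called it for G564E minus AtPHYB as well, at 0.22 ± 0.0843 (DESeq2 adjusted p = 0.0262). The other member called by DESeq2 was Bra010849, at -0.22 ± 0.0901 for G564E minus AtPHYB (DESeq2 adjusted p = 0.0423; edgeR adjusted p = 0.186). In edgeR the lowest adjusted p of any member was 0.433, 0.123 and 0.139 in the order of the comparisons.

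Steadiness was also examined in libraries that took no part in a choice, apart from their size factors. On the 6 NT and AtPHYB libraries alone, 279 genes had a mean N of 2000 or more and stayed within the limit of 1.3. Because that mean left out G564E, genes abundant only in G564E could not enter. The choice itself can therefore tilt the values below towards lower levels in G564E, and nothing is read from such a tilt. The mean of G564E lay within 1.3 times of the mean of these 6 libraries at 141 of the 279 genes (50.5%), beside 433 of all 1683 genes past the mean of 2000 in the 6 libraries (25.7%). It was past the limit on the lower side at 109 genes and on the higher side at 29. Without G564E replicate 1 the mean lay within it at 150 of the 279 (53.8%), beside 28.1% of the 1683, with 102 lower and 27 higher. Over the 279 genes the G564E mean was 0.0780 to 2.61 times that of the other 6 libraries, with a median of 0.858, beside a median of 0.606 over all 1683 genes. Lower values in G564E were thus not particular to the chosen genes. Counts of lower and higher genes over the 1683 are not given here. With each G564E library held to the limit, 39 of the 279 (13.98%) stayed within it, 37 of them members. That count rests on replicate 1: it was 97 (34.8%) without it, and 43 and 46 without replicates 2 and 3.

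The same was done with NT or AtPHYB left out. Chosen on AtPHYB and G564E, 68 genes were within the limit, and at 66 of them the NT mean lay within 1.3 times of the rest, beside 67.0% of all genes past the mean of 2000. Chosen on NT and G564E there were 72 genes, of which 68 had an AtPHYB mean within 1.3 times of the rest, beside 41.0% of all. Over all 9 libraries 42 of the 68 and 41 of the 72 stayed within the limit, and these were all members, so such counts return the chosen genes. With G564E replicate 1 alone left out, 100 genes were chosen on the other 8 libraries, and at 27 of them that library was lower than the mean of the rest by more than the limit and at 15 higher. It lay within the limit at 58 of the 100, beside 24.3% of all 1596 genes past the mean of 2000 in the other 8 libraries. Its median ratio to the mean of the rest was 0.888 over the 100 genes and 0.604 over the 1596. Size factors were those of all 9 libraries in each of these counts, and no count was matched for abundance.

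The steadiness of the members holds relative to the typical gene and not per read sequenced. The total of N in a library, its reads per unit of size factor, was 14796677 to 15829223 in G564E, 18835054 to 19838439 in NT and 19553435 to 22481593 in AtPHYB. The 42 members took 0.675 ± 0.00731% of the counts of a library in G564E, 0.537 ± 0.0230% in NT and 0.503 ± 0.0192% in AtPHYB (mean ± SD, n = 3 each). Every G564E library, replicate 1 included, was above every other one, with 0.667% to 0.681% against 0.481% to 0.556%. This share is the members' sum of N over the total of N, and the rule keeps that sum nearly steady. The shares therefore mirror the totals above and are not a separate result about the members. Genes with a mean N of 4000 or more took 23.6 ± 1.28% of the counts in G564E, 36.5 ± 1.01% in NT and 39.2 ± 1.78% in AtPHYB.

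With counts scaled by library size alone, the members were higher in G564E. Under it, the ratio of highest to lowest scaled count had a median of 1.54 over the members and a range of 1.28 to 1.89, 3 of the 42 met the limit, and all 42 had their highest value in a G564E library. A set of 23 genes met the whole rule under that scaling, 3 of them members. With library size alone edgeR called 19 members higher in G564E than in NT and 32 higher than in AtPHYB, beside 28% and 38.6% of all tested genes, and 0 members lower, beside 7.79% and 8.83%. The same scaling put the median of all tested genes at log2 fold changes of 0.34 and 0.47 and the members' median at 0.35 and 0.43, so relative to all genes the members stood at 0.017 and -0.039. TMM scaling gave 46 genes, all 42 members among them, and upper-quartile scaling 57 genes with 35 of the members. Size factors taken from the 1572 abundant genes alone, an alternative chosen after seeing the data, gave 18 genes and 0 of the members, whose ratio then ran from 1.46 to 2.34 with all 42 highest in a G564E library. The size factor of G564E replicate 1 thereby went from 1.24 to 0.851 and that of AtPHYB replicate 2 from 0.795 to 1.02. For genes held within 1.3 before, that shift fixes the loss of all members and their highest place in G564E. Nothing is therefore read from either.

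**Figure D5:**
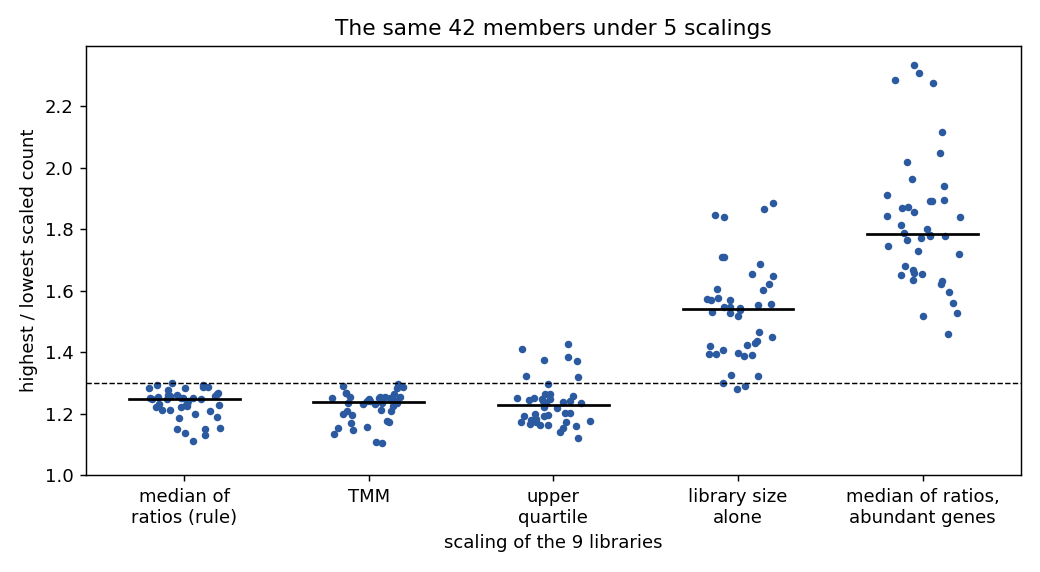
Each dot is 1 of the 42 members, with the ratio of its highest to its lowest scaled count over the 9 libraries (y axis) under 5 scalings (x axis); horizontal bars are medians and the dashed line is the limit of 1.3. The medians were 1.25 with the median of ratios that chose the members, 1.24 with TMM, 1.23 with upper quartiles, 1.54 with library size alone and 1.78 with size factors from the 1572 abundant genes. Under the last scaling, the rule and the shift of the size factors fix in advance that every member lies above the limit.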

How the data were processed

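RNA-seq of whole seedlings gave 9 libraries, grouped into 3 genotypes of 3 by their titles. Each deposited file holds 1 library as whole, unscaled read counts for every gene ID. The tools named in the submitters' processing notes are FastQC 0.11.8, Trimmomatic 0.39, TopHat2, HTSeq and edgeR; the genome build, annotation and strand option used for counting were not given there. How reads of near-identical gene copies were counted could not be examined.

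Size factors, N and the rule were computed with pandas 2.3.3 and numpy 2.4.6. The model was edgeR 4.0.16 in R 4.3.3: filterByExpr (27967 genes), TMM, a quasi-likelihood fit of genotype means over all 9 libraries, 2-sided tests, and Benjamini-Hochberg adjustment over all tested genes. Standard errors are the log2 fold change over the square root of F. DESeq2 1.42.0, limma 3.58.1 (voom), other scalings and filters, a replicate block and single libraries left out were alternatives. Scripts were tested on simulated data. Members and lists were chosen with earlier results of these data known.

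Named members are the 10 with the highest and 5 with the lowest mean N, and the 5 with the lowest and 5 with the highest ratio, with the nearest 3 genes outside each limit; any other ID was chosen after its values were seen. The labels number replicates 1 to 3. Deviations of same-numbered AtPHYB and G564E libraries correlated at 0.42, 0.33 and 0.13 across genes. NT libraries correlated with same-numbered transgenic ones at -0.18 to 0.083. Correlations of differently numbered libraries are not given here, and the labels do not say what the numbers mark. Whether they mark pairs is therefore not known. The main model did not use them, and the replicate block was an alternative only. No 2 replicates agreed within sampling noise (chi-square per degree of freedom 11.4 or more).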

Additional observations from a re-analysis of the deposited data

How the results depend on the processing

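The 42 members became 23 with library size alone, 18 with size factors from the 1572 abundant genes (added after seeing the data), 9 and 131 with a ratio limit of 1.2 and 1.5, and 171 and 0 with a mean floor of 1000 and 4000. Leaving out single libraries gave 42 to 91, the highest without G564E replicate 1. TMM (46) and upper quartiles (57) stayed within 1.5 times. Genes still within the limit in the left-out genotype were 39.1%, 36.0% and 7.41% for NT, AtPHYB and G564E at a limit of 1.2, and 75.1%, 70.4% and 18.9% at 1.5. Under TMM they stayed within their 95% intervals. Without each library of that genotype in turn (added after seeing the data) they were 67.6% to 76.5%, 56.9% to 72.2% and 15.4% to 34.8%, the last being highest without G564E replicate 1.

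Members called for G564E minus NT were 19 with library size alone, all higher where 28% of all genes were, and 1 with DESeq2 beside 33.9% of all genes. For G564E minus AtPHYB they were 32, all higher where 38.6% of all genes were, and 2 beside 40.7%. In every other alternative run, leaving out each library in turn and the replicate block included, 0 members were called in any comparison. With the replicate block fitted to the compared genotypes alone, added after seeing the data, the count was also 0. The cause was not tested. Functions, gene lengths and reads shared between gene copies could not be examined, and 3 libraries a genotype limit the precision of every spread.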
